A study of Mus musculus with 6 samples.

Results

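The osteoclast differentiation axis was described through 10 genes chosen by name: the growth factor gene Csf1 and its receptor gene Csf1r, the RANK ligand gene Tnfsf11, the RANK gene Tnfrsf11a and the decoy receptor gene Tnfrsf11b, the adaptor gene Traf6, the transcription factor genes Mitf and Nfatc1, and the effector genes Acp5 and Ctsk. Of these, 9 were among the 11815 genes of the table, and Tnfrsf11a was not analysed here. A gene's level is the sum of its listed transcripts in TPM, a unit corrected for transcript length and for the total of each library, and then scaled between libraries. Because of the length correction, levels can be set side by side between genes, for the transcripts listed. A sum can miss RNA where not all annotated transcripts are listed, as for Mitf (1 of 8), Acp5 (2 of 6) and Csf1 (3 of 7).

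Osteoclasts arise when myeloid precursors receive a pair of signals. CSF1 keeps the precursors alive through its receptor CSF1R, and RANK ligand, made in bone mainly by osteocytes and stromal cells, binds RANK on the precursor. RANK recruits TRAF6, and the signal ends in the induction of NFATc1, which acts with MITF on genes such as Acp5, the tartrate-resistant acid phosphatase, and Ctsk, the protease that degrades bone collagen. Osteoprotegerin, the product of Tnfrsf11b, binds RANK ligand and keeps it from RANK. Loss of estrogen is a known setting of increased osteoclast activity in bone.

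Osteal macrophages (Omacs), the macrophages that lie along bone surfaces, were sorted in bulk from female BALB/c mice that underwent bilateral ovariectomy (OVX) or a sham operation at 10 weeks of age. Bones were harvested 4 weeks after surgery, and no further treatment was given. Total RNA was sequenced in 3 sham and 3 OVX libraries. Per the study's methods, 20 mice were harvested for each condition, but neither the labels nor the methods say how they were divided among the libraries. The p-values therefore reflect the spread of these 3 libraries per group, which may be technical. Femurs, with the marrow washed out and the epiphysis and periosteum removed, and vertebrae were digested with trypsin and collagenase D before sorting on CD11b, F4/80 and CD68.

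Markers of cells beyond the sorted type were measured in every library. Summed over the markers of each cell type, neutrophil genes ranged from 69769 to 88873 scaled TPM in the sham libraries and from 133490 to 141060 in the OVX libraries. S100a8 and S100a9 made up most of this sum. Of 7 neutrophil genes that could be tested, 4 lay above sham in all OVX libraries, beside 7.54% of all genes. Lcn2, Ltf and Elane overlapped between the groups. In OVX 3, Lcn2 and Ltf lay below every sham library, at 771 and 59.3 scaled TPM. Stromal and fibroblast genes ranged from 32730 to 35990 in the sham libraries and came to 39651, 36191 and 20248 in OVX 1, 2 and 3. Of 16 macrophage and sort markers 9 were in the table, with sums of 1521 to 1597 scaled TPM over the sham libraries and 1584 to 2044 over the OVX libraries. Cd14, Lgals3 and Lyz2 made up most of these sums, whereas Mertk averaged 0.535 scaled TPM over the 6 libraries. OVX 3 stood apart, since its listed transcripts held 66.31% of the library's TPM against 80.53% to 82.97% in the other libraries, and the values of the axis genes that rest on it are therefore also given without it. The sort markers Itgam (CD11b) and Cd68 were present in all libraries, Itgam averaging 11.9 ± 1.48 scaled TPM in the sham and 21.9 ± 5.74 in the OVX libraries, whereas Adgre1 (F4/80) averaged 0.875 ± 0.260 and 0.678 ± 0.330 (SD, n = 3). In bulk RNA, fewer cells of a type and less RNA per cell cannot be told apart.

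None of the axis genes passed the test between OVX-Omacs and sham Omacs. In limma's fit of log2(scaled TPM + 1), with p-values adjusted by Benjamini-Hochberg across 8185 genes, 7 axis genes could be tested and 0 were called in either direction, against 0.0122% of all genes called higher and 0% called lower. Without adjustment, 1 of the 7, Acp5, had a p of 0.05 or less, beside 7% of all genes. Acp5 was also the single axis gene whose OVX libraries all lay below the sham libraries, a pattern held by 7.6% of all genes, and 0 axis genes lay above in all OVX libraries, beside 7.54% of all genes. The fitted change was above 0 for 2 axis genes and below 0 for 5, with a median of −0.10 on the log2 scale, next to −0.01 over all genes tested. With these 6 libraries the lowest adjusted p among the axis genes was 0.688.

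**Figure D1:**
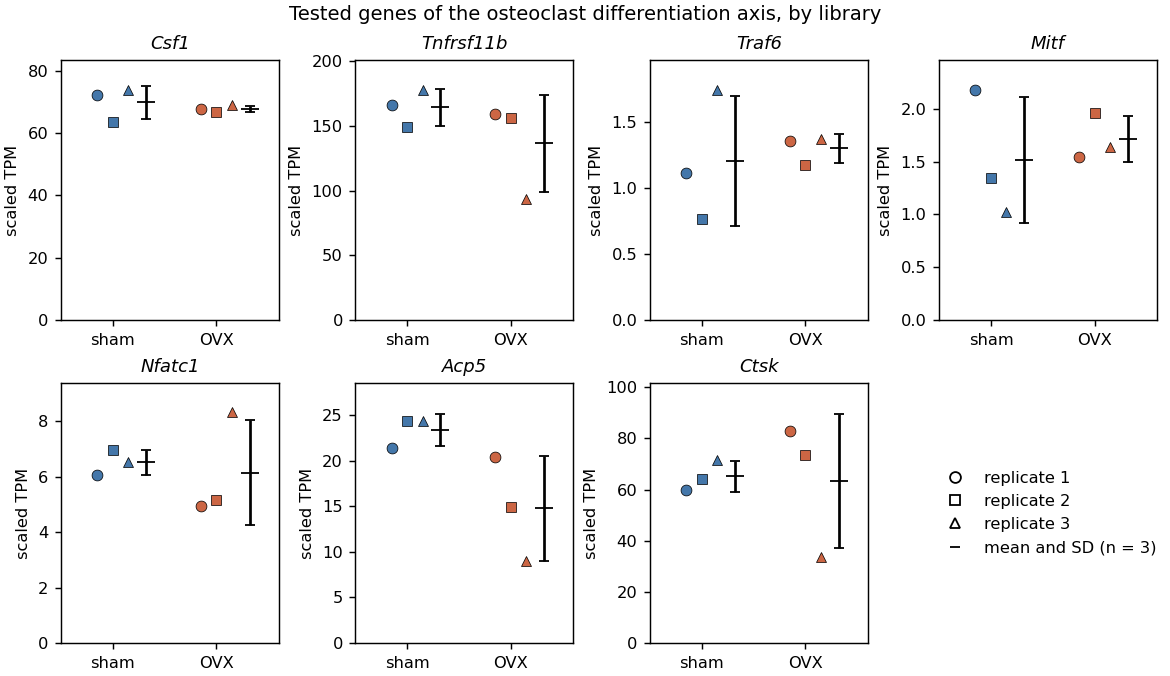
Level of each tested axis gene in scaled TPM (y axis, from 0) in the 3 sham (blue) and 3 OVX (orange) libraries, with the replicate number as the marker shape and the mean and SD (n = 3) as a black bar beside the points. Acp5 is the panel in which all OVX points lie below all sham points, while OVX 3 (triangle) is the lowest library for Tnfrsf11b and Ctsk and the highest for Nfatc1.

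The axis genes spanned a wide range of levels. Tnfrsf11b was the most abundant, with a mean of 150 scaled TPM over the 6 libraries and a range of 93.5 to 177. Csf1, at 68.9 with a range of 63.8 to 73.9, and Ctsk, at 64.3 with a range of 33.4 to 83.0, followed, and their ranges overlapped. Acp5 averaged 19.1 scaled TPM and Nfatc1 6.33, each with a range that stayed clear of its neighbours in the order. Mitf, at 1.61, and Traf6, at 1.25, overlapped, and Tnfsf11 lay below every tested member. Listed transcripts of the ligand trap and of the growth factor were thus more abundant per length than those of the RANK ligand and of the adaptor in every library.

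Of the ligand genes, Csf1 was tested and did not pass, and Tnfsf11 lay too low to be tested. Csf1 (chr3:107741048-107760469, minus strand, GRCm38) encodes the macrophage growth factor. It stood at 72.1, 63.8 and 73.9 scaled TPM in the sham libraries (replicates 1, 2 and 3, the order kept for every gene) and at 67.7, 66.9 and 68.9 in the OVX libraries. All OVX values fell inside the sham range, and OVX 3 was no exception, at 102% of the mean of OVX 1 and 2. The means were 69.9 ± 5.41 and 67.9 ± 1.01 (SD, n = 3), a log2 fold change of −0.04 ± 0.13 (SE) with a 95% interval of −0.34 to 0.26 (adjusted p = 0.930, limma). On the linear scale that interval runs from 0.791-fold to 1.20-fold, which makes Csf1 the most tightly bounded of the tested axis genes.

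Csf1 RNA was divided among 3 listed transcripts of the 7 that GENCODE M21 annotates. Csf1-202 held 78.9% to 90.5% of the gene's TPM, with 62.60, 54.59 and 66.37 deposited TPM in sham and 56.22, 57.21 and 51.86 in OVX. Csf1-203 stood at 12.41, 8.46 and 17.55 in sham and at 10.97, 8.92 and 5.06 in OVX, so the lowest value was in OVX 3 and the groups overlapped. The remaining Csf1-201 stayed between 0.25 and 1.24 deposited TPM. The leading transcript's share was 82.4 ± 3.44% in sham and 86.1 ± 3.93% in OVX (SD, n = 3), with no test of the difference.

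Tnfsf11 (chr14:78277445-78308043, minus strand), the RANK ligand gene, was close to the lower end of the table. Its 1 annotated transcript stood at 0.15, 0 and 0.33 deposited TPM in sham and at 0.09, 0 and 0 in OVX. It was thus above 0 in 2 sham libraries and 1 OVX library, and below the mean of 1 scaled TPM required of a tested gene. TPM keep no read counts, so no detection limit can be set for the libraries at 0.

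Among the receptor genes, Csf1r (chr18:61100598-61132149, plus strand) was listed at 0 in all 6 libraries, for the 1 of its 6 annotated transcripts in the table. In all, 328 genes were listed at 0 throughout, among them Polrmt, the mitochondrial RNA polymerase that cells use throughout the body, so the value can be a failed estimate and nothing further was read from it. Tnfrsf11a (chr1:105780718-105847981, plus strand), which encodes RANK, has 3 annotated transcripts and none of them was analysed here. The response to RANK ligand is therefore described through the genes downstream of RANK, and the response to CSF1 is not described.

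Tnfrsf11b (chr15:54250619-54278484, minus strand), the osteoprotegerin gene, has 1 annotated transcript, which was listed. It stood at 166, 149 and 177 scaled TPM in the sham libraries and at 159, 156 and 93.5 in OVX. OVX 1 and 2 lay inside the sham range, and OVX 3 lay below every other library at 59.2% of the mean of OVX 1 and 2. The means were 164 ± 14.1 and 136 ± 37.2 (SD, n = 3), and the log2 fold change was −0.30 ± 0.22 (SE, 95% interval −0.83 to 0.22, adjusted p = 0.781, limma). Without OVX 3 the log2 fold change was −0.05. The stromal marker sum in OVX 3 was also low, at 53.4% of the mean of OVX 1 and 2. Mgp and Dcn, at 43.0% and 72.4%, made up most of that sum, and Lum, the next most abundant stromal marker, was at 107%. The part of stromal cells in the Tnfrsf11b value was not tested.

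The balance of RANK ligand to its decoy was expressed as the log2 ratio of Tnfsf11 to Tnfrsf11b within each library, from deposited TPM + 1. It was −7.25, −7.23 and −7.26 in sham and −7.20, −7.31 and −6.30 in OVX, so OVX 3 lay farthest from the others. The group means were −7.25 ± 0.0122 and −6.94 ± 0.554 (SD, n = 3), a difference of 0.31 (exact two-sided permutation test, p = 0.7, adjusted p = 0.7 over 4 ratios). With Tnfsf11 near 0, the ratio mainly follows Tnfrsf11b. With a pseudocount of 0.1 the difference was −0.36, and without OVX 3 it was −0.01.

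Traf6 (chr2:101678429-101701669, plus strand), the ubiquitin ligase that binds the cytoplasmic tail of RANK, was low in both groups. It stood at 1.12, 0.761 and 1.74 scaled TPM in the sham libraries and at 1.36, 1.17 and 1.37 in OVX. All OVX values fell within the sham range, which was the wider of the pair. The log2 fold change was 0.08 ± 0.21 (SE, 95% interval −0.41 to 0.58, adjusted p = 0.915, limma), and its sign turned on the deposited TPM, to −0.02, and without sham 2, to −0.07. Values cover 1 of 3 annotated transcripts.

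Mitf (chr6:97807052-98021349, plus strand) encodes a basic helix-loop-helix factor that acts in osteoclasts and in pigment cells. It stood at 2.18, 1.34 and 1.02 scaled TPM in the sham libraries and at 1.55, 1.96 and 1.64 in OVX, again with all OVX values inside the sham range. The log2 fold change was 0.13 ± 0.22 (SE, 95% interval −0.37 to 0.64, adjusted p = 0.868, limma), and it was −0.01 without sham 3. The value rests on Mitf-202, which was 1 of 8 annotated transcripts. Mitf transcripts start at several promoters, and the others were not analysed here.

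Nfatc1 (chr18:80606205-80713071, minus strand), the factor through which RANK signals drive the osteoclast program, stood at 6.07, 6.95 and 6.52 scaled TPM in the sham libraries and at 4.95, 5.16 and 8.32 in OVX. OVX 1 and 2 were below every sham library, and OVX 3 was above every other library, at 165% of the mean of OVX 1 and 2. The means were 6.51 ± 0.439 and 6.14 ± 1.89 (SD, n = 3), with a log2 fold change of −0.10 ± 0.21 (SE, 95% interval −0.60 to 0.39, adjusted p = 0.895, limma). Without OVX 3 the log2 fold change was −0.31 (adjusted p = 0.580, limma), and without OVX 1 it was 0.01. Over 18 alternative settings its adjusted p lay between 0.451 and 0.990. Nfatc1 thus moved against Tnfrsf11b and Ctsk in OVX 3.

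Of the 7 annotated Nfatc1 transcripts, 4 were listed. Nfatc1-201 held 55.8% to 74.2% of the gene's TPM and stood at 4.05, 3.87 and 4.44 deposited TPM in sham and at 3.07, 3.85 and 4.53 in OVX. Nfatc1-205 stood at 1.93, 2.14 and 1.04 in sham and at 0, 1.34 and 2.39 in OVX, and was listed at 0 in OVX 1. Nfatc1-204 was listed at 0 in OVX 2 and OVX 3, and Nfatc1-206 in sham 1, OVX 2 and OVX 3. Taken from the most abundant transcript in place of the sum, the log2 fold change of Nfatc1 was 0.03.

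**Figure D2:**
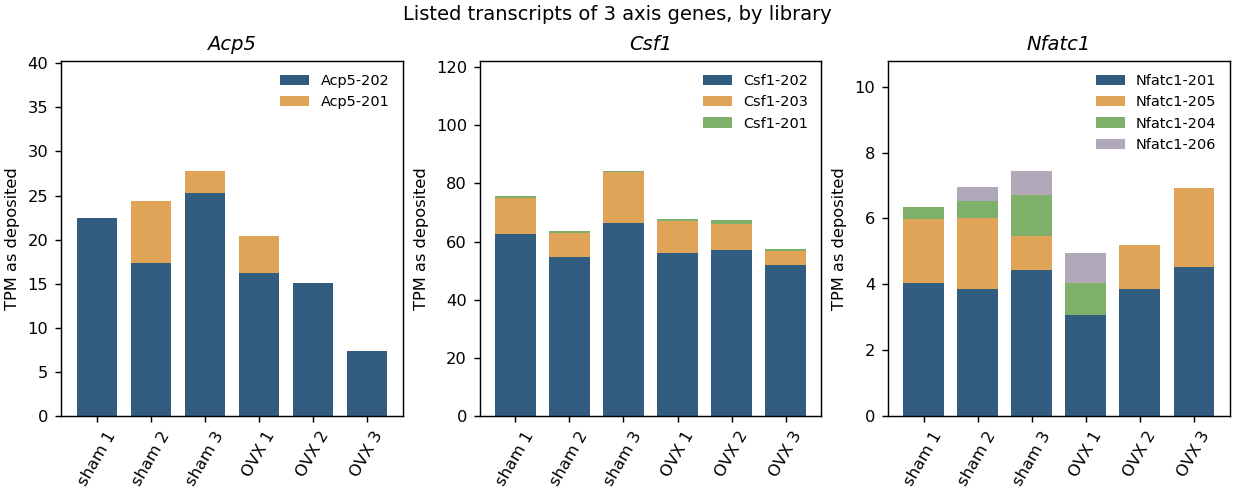
Deposited TPM (y axis, stacked) of each listed transcript of Acp5, Csf1 and Nfatc1 in the 3 sham and 3 OVX libraries (x axis). Csf1-202 and Nfatc1-201 lead in every library, and Acp5-202 holds all of the Acp5 value in sham 1, OVX 2 and OVX 3.

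Acp5 (chr9:22126727-22135711, minus strand), whose product is the enzyme stained to mark osteoclasts in bone sections, showed the largest fitted change of the 7 tested axis genes. It stood at 21.4, 24.4 and 24.4 scaled TPM in the sham libraries and at 20.4, 14.96 and 8.95 in OVX. Every OVX library was below every sham library, but OVX 1 was close to sham 1, and OVX 3 was at 50.6% of the mean of OVX 1 and 2. The means were 23.4 ± 1.73 and 14.8 ± 5.72 (SD, n = 3), and the log2 fold change was −0.70 ± 0.27 (SE) with a 95% interval of −1.34 to −0.05. The unadjusted p was 0.0376 and the adjusted p 0.688 (limma, over 8185 genes). Without OVX 3 the log2 fold change was −0.40 (adjusted p = 0.499), and it lay between −0.95 and −0.40 when each library was left out in turn. With limma's library weights, which gave OVX 3 a weight of 0.171, it was −0.52 (adjusted p = 0.232). Over 18 alternative settings the change kept its sign and the adjusted p lay between 0.232 and 0.976. Marker sums that also lay below sham in all OVX libraries were those of muscle (240 ± 5.99 against 160 ± 17.0 scaled TPM), of osteoblasts and osteocytes (6458 ± 24.2 against 4967 ± 413) and of mitochondrially encoded genes (79128 ± 3662 against 63404 ± 7817), and the neutrophil sum lay above (SD, n = 3). Spp1 alone made up most of the osteoblast and osteocyte sum, at 6421 ± 26.5 against 4919 ± 432. Of that list's 6 tested genes, 4 were above 0 and 2 below, with a median log2 fold change of 0.14. The stromal sum, mostly Mgp and Dcn, overlapped between the groups. Yet 5 of the 9 tested stromal genes lay below sham in all OVX libraries, beside 7.6% of all genes. The median log2 fold change of the stromal list was −0.25, with 3 genes above 0 and 6 below. The chondrocyte sum, mostly Chad and Comp, overlapped between the groups. Of its 13 tested genes, 9 lay above sham in all OVX libraries and 2 below, beside 7.54% and 7.6% of all genes, with a median of 0.72. The part of all these markers in the Acp5 value was not tested.

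The Acp5 value came from 2 of 6 annotated transcripts, which start at different sites. Acp5-202, starting at position 22130598, stood at 22.41, 17.36 and 25.28 deposited TPM in sham and at 16.17, 15.06 and 7.44 in OVX, all OVX values being below all sham values. Acp5-201, starting at position 22131815, stood at 0, 7.01 and 2.46 in sham and at 4.25, 0 and 0 in OVX. The share of Acp5-202 was 87.5 ± 14.7% in sham and 93.1 ± 12.0% in OVX (SD, n = 3), with no test of the difference, so the downstream start carried most of the gene's TPM in both groups.

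Ctsk (chr3:95499256-95509362, plus strand), the cathepsin that cleaves type I collagen in the resorption pit and that stromal and synovial fibroblasts also express, has 1 annotated transcript. It stood at 59.8, 64.2 and 71.7 scaled TPM in the sham libraries and at 83.0, 73.3 and 33.4 in OVX. OVX 1 and 2 were above every sham library and OVX 3 was below every sham library, at 42.8% of the mean of OVX 1 and 2. The means were 65.2 ± 6.03 and 63.3 ± 26.3 (SD, n = 3), a log2 fold change of −0.14 ± 0.33 (SE, 95% interval −0.91 to 0.63, adjusted p = 0.908, limma). Without OVX 3 the log2 fold change was 0.26 (adjusted p = 0.561), and with library weights it was 0.19, so 1 library set its sign. Over 18 alternative settings its adjusted p lay between 0.561 and 0.991. The stromal marker sum, mostly Mgp and Dcn, followed the same order of OVX 1, OVX 2 and OVX 3. The part of stromal cells in the Ctsk value was not tested.

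**Figure D3:**
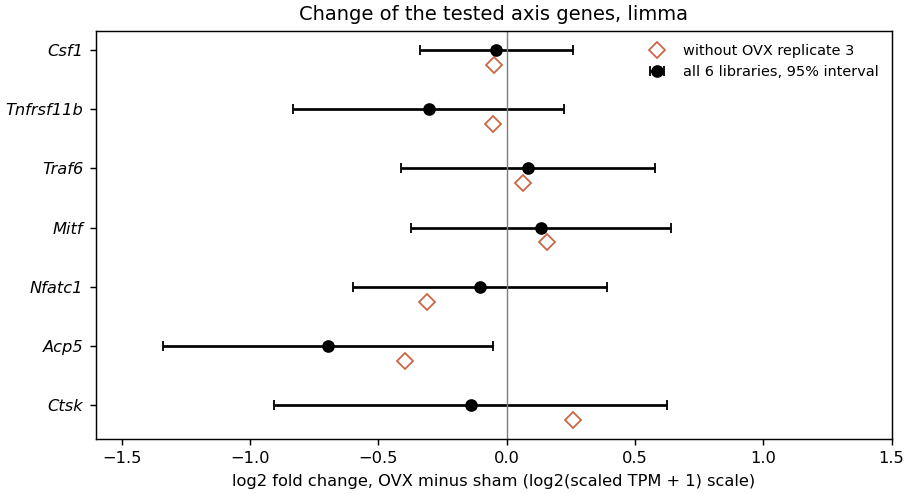
Log2 fold change, OVX minus sham, on the log2(scaled TPM + 1) scale (x axis) of the 7 tested axis genes (y axis), from limma. Black points and bars give the estimate and 95% interval from all 6 libraries, and open diamonds the estimate without OVX 3; Acp5 moves from −0.70 to −0.40 and Ctsk from −0.14 to 0.26.

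The effector genes are shown with the RefSeq promoter sequence nearest to the starts of their listed transcripts, because Acp5 and Ctsk are known targets of NFATc1 and MITF and their ratio is the comparison that follows. Each run is a RefSeq promoter window of 300 bases on GRCm38.p6, 250 before the RefSeq start and 50 from it on, written 5′ to 3′ on the gene's strand. Capitals mark matches, on either strand, to the NFAT core GGAAA or to the E-box CATGTG that MITF can bind. Windows for Acp5 lie at chr9:22130549-22130848 and chr9:22131816-22132115 (minus strand), and that for Ctsk at chr3:95498960-95499259 (plus strand). RefSeq windows were given for 7 of the 10 axis genes.
Acp5, window of Acp5-202: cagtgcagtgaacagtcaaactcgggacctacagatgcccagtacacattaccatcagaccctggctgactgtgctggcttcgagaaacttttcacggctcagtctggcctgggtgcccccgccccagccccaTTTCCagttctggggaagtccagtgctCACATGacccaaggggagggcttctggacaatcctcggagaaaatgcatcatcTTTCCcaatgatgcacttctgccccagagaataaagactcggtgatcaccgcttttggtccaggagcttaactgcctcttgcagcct
Acp5, window of Acp5-201: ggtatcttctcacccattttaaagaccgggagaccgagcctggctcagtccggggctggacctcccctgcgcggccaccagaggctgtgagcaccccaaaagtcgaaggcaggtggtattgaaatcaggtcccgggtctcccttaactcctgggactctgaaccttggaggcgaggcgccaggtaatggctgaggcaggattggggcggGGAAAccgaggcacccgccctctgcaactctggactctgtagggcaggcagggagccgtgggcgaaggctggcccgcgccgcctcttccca
Ctsk, window of Ctsk-201: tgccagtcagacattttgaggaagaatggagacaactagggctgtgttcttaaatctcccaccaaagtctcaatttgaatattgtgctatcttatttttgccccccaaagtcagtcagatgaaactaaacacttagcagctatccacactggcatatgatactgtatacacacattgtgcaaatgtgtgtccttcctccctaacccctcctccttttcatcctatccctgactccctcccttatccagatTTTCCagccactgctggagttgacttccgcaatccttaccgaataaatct

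Acp5-202 starts exactly at the RefSeq start of its window, whereas Acp5-201 and Ctsk-201 start 50 and 46 bases past theirs. The Acp5-201 window thus ends just before that transcript's first base, while the Ctsk window contains the start of Ctsk-201. The Acp5-202 window held 2 matches to GGAAA and 1 to CATGTG, and the Acp5-201 and Ctsk windows held 1 match to GGAAA each and 0 to CATGTG. The NFAT core was present in 61.3% of 32851 RefSeq promoter windows of this length and CATGTG in 14.2%. None of these 3 windows held the E-box CACGTG (7.15% of windows), the AP-1 motif (TGA and TCA around any base, 7.81%) or the PU.1 motif GAGGAAGT (3.2%), each searched on both strands. The matches did not overlap one another. A match describes letters and not a bound site.

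The 2 effector genes were set against each other within each library. Scaling between libraries enters such a ratio only through the 1 added to each TPM. The log2 ratio of Ctsk to Acp5, from deposited TPM + 1, was 1.44, 1.36 and 1.52 in sham and 1.97, 2.22 and 1.77 in OVX. The ratio was higher in all 3 OVX libraries than in any sham library, OVX 3 included. Group means were 1.44 ± 0.0817 and 1.99 ± 0.225 (SD, n = 3), a difference of 0.55. The exact two-sided permutation test gave p = 0.1, the smallest p that 3 against 3 libraries allow, and p = 0.2 after adjustment over 4 ratios. Without OVX 3 the difference was 0.65, and it lay between 0.43 and 0.65 when each library was left out in turn.

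Each effector gene was also set against Cd68, the lysosomal macrophage marker used for the sort. The log2 ratio of Acp5 to Cd68 was −0.57, −0.61 and −0.45 in sham and −0.97, −1.46 and −1.90 in OVX, lower in all OVX libraries than in any sham library. The difference was −0.90 (exact two-sided permutation test, p = 0.1, adjusted p = 0.2), with a range of −1.14 to −0.68 over the libraries left out. The log2 ratio of Ctsk to Cd68 was 0.87, 0.75 and 1.08 in sham and 1.00, 0.76 and −0.13 in OVX, so that OVX 1 and 2 lay inside the sham range and OVX 3 below it. Its difference was −0.36 (exact two-sided permutation test, p = 0.5, adjusted p = 0.667) and came to −0.02 without OVX 3. Cd68 itself stood at 34.5 ± 2.86 and 40.3 ± 3.20 scaled TPM (SD, n = 3; log2 fold change 0.22 ± 0.14, adjusted p = 0.748, limma).

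**Figure D4:**
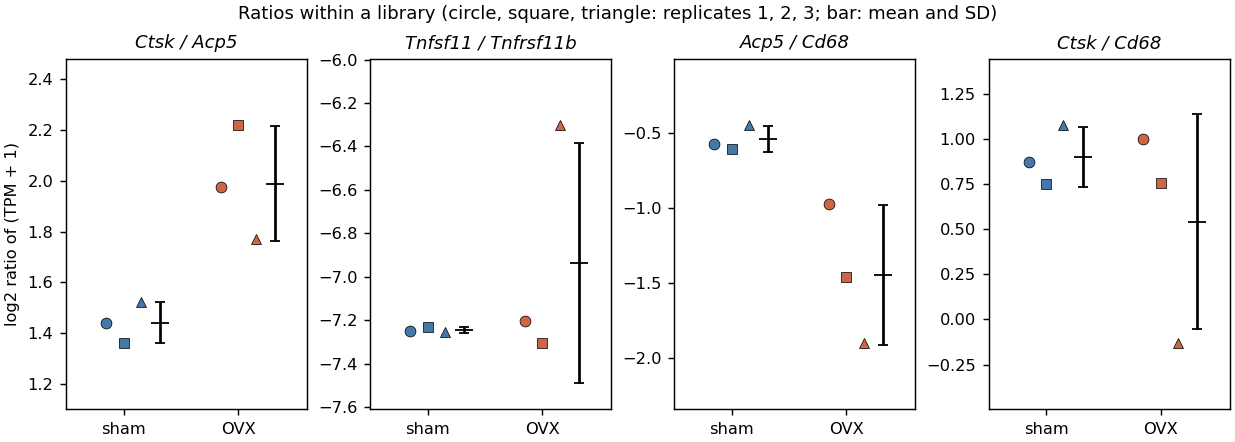
Log2 ratio of deposited TPM + 1 between 2 genes within a library (y axis, not from 0) in the sham (blue) and OVX (orange) libraries, with the mean and SD (n = 3) beside the points. The OVX libraries lie clear of sham for Ctsk to Acp5 (differences of means 0.55) and Acp5 to Cd68 (−0.90), and overlap with sham in the other panels.

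The correlations between axis genes rested largely on OVX 3. Over all 6 libraries, Tnfrsf11b correlated with Ctsk at r = 0.907 and with Acp5 at r = 0.887, and Acp5 with Ctsk at r = 0.772, whereas Nfatc1 ran opposite to Ctsk at r = −0.859 and to Tnfrsf11b at r = −0.699. These are Pearson correlations of log2(scaled TPM + 1) over 6 libraries, described with no p, and the points share the low or high value of OVX 3. Without OVX 3, an alternative chosen after seeing the data, they were 0.03 for Tnfrsf11b with Ctsk, 0.27 for Tnfrsf11b with Acp5 and −0.33 for Acp5 with Ctsk. Nfatc1 stayed opposite to Ctsk, at −0.70 over those 5 libraries, but came to 0.11 with Tnfrsf11b. With Acp5, Nfatc1 had a correlation of −0.41 over all libraries and 0.77 without OVX 3. Csf1 had a correlation with Tnfrsf11b of 0.23 over all libraries and 0.97 without OVX 3. Over the 8177 tested genes with a value, OVX 3 stood at a median of 98.2% of the mean of OVX 1 and 2, with quartiles of 68.6% and 136%, so Acp5, Ctsk and Tnfrsf11b lay below the lower quartile and Nfatc1 above the upper one.

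**Figure D5:**
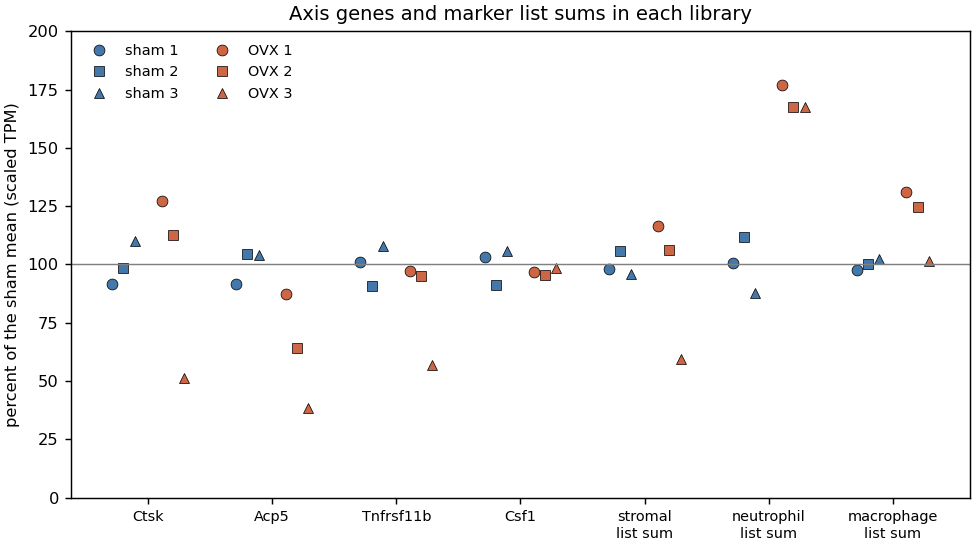
Level of 4 axis genes and of 3 marker list sums in each library as a percent of the sham mean (y axis, scaled TPM, grey line at 100), with sham libraries in blue and OVX libraries in orange. In OVX 3 (orange triangle), Ctsk, Acp5, Tnfrsf11b and the stromal sum, mostly Mgp and Dcn, are low together while Csf1 is near 100. The neutrophil sum, mostly S100a8 and S100a9, is high in all 3 OVX libraries.

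For each axis gene whose mean reached 5 scaled TPM, the 3 genes most like it over the 6 libraries were listed as a description, which OVX 3 enters like the other libraries. They were Hif1an, Gtf2h4 and Tpt1-ps3 for Csf1, with r of 0.953 to 0.991, and 20 of 8184 genes had an r above 0.9. For Tnfrsf11b they were Npdc1, Rrp1 and Hmox1, with r of 0.997 to 0.998, and 835 genes had an r above 0.9. Nfatc1 was followed most closely by Smtn, Maged1 and Fabp7, Acp5 by Fbln1, Rpl3-ps1 and Mpnd, and Ctsk by Wif1, H1f2 and Ugt1a7c, with 140, 467 and 586 genes above 0.9. Over these 6 libraries, fewer genes thus had an r above 0.9 with Csf1 than with Tnfrsf11b, Ctsk or Acp5. The counts were not taken without OVX 3, so they cannot tell a shared pattern from a shared value in that library.

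Other genes of the axis were read in lists by role, and 0 genes of these lists passed the test in either direction (limma). At an unadjusted p of 0.05, the lists ranged from 0 of 13 transcription factor genes to 4 of 18 resorption genes and 3 of 6 costimulation genes, beside 7% of all genes. Of 27 RANK adaptor and kinase genes, 26 were in the table and 22 were tested, 6 above 0 and 16 below, with a median log2 fold change of −0.11 (−0.03 without OVX 3). Of 17 osteoclast transcription factor genes, Nfatc1 and Mitf included, 13 were tested, 5 above 0 and 8 below, with a median of −0.10 (−0.01 without OVX 3). The most abundant gene placed in this list was Id2, an inhibitor of helix-loop-helix factors like Id3 and so closer to the repressors. Id2 averaged 203 ± 9.62 and 214 ± 9.61 scaled TPM (log2 fold change 0.07 ± 0.12, adjusted p = 0.874, limma). The 13 tested genes of calcium and calcineurin signalling, which activates NFATc1, split 7 above and 6 below with a median of 0.16, which was 0.05 without OVX 3. Of 9 tested genes of ligands, receptors and decoys, 3 were above 0 and 6 below, with a median of −0.01, next to −0.01 for all genes tested.

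The genes of ITAM costimulation, the second signal that precursors need beside RANK, had the list median farthest above 0 among the signalling lists, at 0.48, with 6 of 6 tested genes above 0, beside 4016 of 8185 genes, and 10 of the 16 named genes not analysed here. With a minimum mean of 5 scaled TPM, 3 of them were tested and their median was 0.93. Fcer1g, an ITAM adaptor of Fc receptors, averaged 207 ± 16.2 scaled TPM in the sham libraries and 408 ± 133 in the OVX libraries (log2 fold change 0.93 ± 0.23, adjusted p = 0.496, limma). Tyrobp, which encodes the adaptor DAP12, averaged 104 ± 22.0 and 200 ± 26.3 (0.96 ± 0.20, adjusted p = 0.377). Without OVX 3 the log2 fold change was 0.67 for Fcer1g and 1.02 for Tyrobp. Both were higher in all OVX libraries than in any sham library, a pattern held by 4 of the 6 tested genes and by 7.54% of all genes. Both are also expressed in neutrophils. The neutrophil marker sum, mostly S100a8 and S100a9, was higher in all OVX libraries too, at 136030 ± 4358 against 79636 ± 9568 scaled TPM (SD, n = 3). Of the 7 tested neutrophil markers, 4 were higher in all OVX libraries, while Lcn2, Ltf and Elane overlapped between the groups. The part of neutrophils in the Fcer1g and Tyrobp values was not tested.

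Repressors of osteoclast differentiation had a median log2 fold change of −0.10 (0.03 without OVX 3), with 2 of 9 tested genes above 0 and 7 below. Id3, an inhibitor of helix-loop-helix factors that can oppose MITF, averaged 211 ± 6.08 scaled TPM in the sham libraries and 132 ± 29.96 in the OVX libraries (log2 fold change −0.70 ± 0.19, adjusted p = 0.557, limma). Nfkbia, the NF-κB inhibitor that RANK signalling degrades and NF-κB induces, stood at 1457 ± 65.2 and 1051 ± 364 (−0.54 ± 0.27, adjusted p = 0.711), with OVX 3 at 50.8% of the mean of OVX 1 and 2 and a log2 fold change of −0.21 without it. Id3 and Nfkbia were lower in all OVX libraries than in any sham library, a pattern held by 7.6% of all genes. Of the 9 tested repressors, 1 was higher in all OVX libraries, beside 7.54% of all genes.

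Genes of the osteoclast's own machinery were read in the same way. Acid secretion and resorption genes, of which 18 of 22 were tested, were 7 above 0 and 11 below with a median of −0.06 (0.07 without OVX 3), and the 13 tested fusion and adhesion genes had a median of 0.01 (0.05 without OVX 3). Of 13 markers that define osteoclasts, 6 were in the table, none of them at 0 in all libraries, and Calcr, Atp6v0d2, Dcstamp, Ocstamp, Oscar, Car2 and Slc9b2 were not analysed here. Their sum was 111 ± 9.24 scaled TPM over the sham libraries and 98.8 ± 36.6 over the OVX libraries (SD, n = 3), with OVX 3 at 48.2% of the mean of OVX 1 and 2, and Ctsk made up most of the sum. Of the 5 tested markers, 1 was above 0 and 4 below, and 2, Acp5 and Itgb3, lay below sham in all OVX libraries, beside 7.6% of all genes. Itgb3, the vitronectin receptor subunit of osteoclasts, chosen after its values were seen, averaged 5.50 ± 0.501 and 3.61 ± 0.206 scaled TPM (log2 fold change −0.49 ± 0.15, adjusted p = 0.668, limma). Mmp9, a gelatinase of osteoclasts and neutrophils, was the marker above 0, at 9.93 ± 2.53 and 11.4 ± 4.89 (0.12 ± 0.34, adjusted p = 0.927), and its log2 fold change was 0.49 without OVX 3 and −0.13 without OVX 1.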

How the data were processed

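Total RNA of sorted Omacs was sequenced from directional libraries, 3 per group. The authors deposited 1 table of TPM per transcript and library. Per the study's methods and the submitters' processing notes, reads were trimmed with fastp, aligned to mm10 with HISAT2 2.0.5 and counted with featureCounts 1.5.0-p3; the step from counts to TPM per transcript is not described in the sources used here. The deposited comparison columns (mean level, log2 fold change, p-values) were not used. Of 23115 transcripts, 22992 have an identifier in GENCODE M21, and 1749 of 11815 genes have all annotated transcripts listed, so a gene's sum can miss RNA. TPM keep no depth, so precision rests on the spread between libraries.

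TPM were scaled by an unweighted trimmed mean of M values (trimming 30% of M and 5% of A at either end; factors 0.832 for OVX 3 and 0.999 to 1.14 for the others). Genes whose mean reached 1 scaled TPM entered limma 3.58.1 (R 4.3.3) as log2(scaled TPM + 1), a scale that understates the change of low genes, with the empirical Bayes trend and an adjusted p threshold of 0.05. The fit was tested on simulated data. Within-library ratios were tested with exact permutation tests (SciPy 1.17.1). The axis genes and the gene lists were chosen with earlier results of these data known. Apart from the axis genes, the text names genes that are most abundant in a list, the sort markers, the genes most like an axis gene, and Itgb3, chosen after its values were seen, and Polrmt, listed at 0. Alternatives covered scaling, filter, pseudocount, variance model, library weights, the replicate block, the most abundant transcript and each library left out.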

Additional observations from a re-analysis of the deposited data

How the results depend on the processing

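The count of 0 axis genes called held under all settings run, with a lowest adjusted p among them of 0.232 (library weights) to 0.976 (without sham 3). Over all genes the count was 1, and it was 0 with a pseudocount of 0.1, 29 with library weights (22 higher, 7 lower), 2 with the most abundant transcript, and 0 to 12 with a library left out, 12 being without OVX 3. Same-numbered deviations from the group means correlated at −0.06, −0.13 and −0.25, and differently numbered ones at −0.15 to 0.20. Deviations from a mean of 3 libraries are tied to each other, so these values cannot decide whether the replicate numbers pair the samples. With the replicate number as a block, 0 genes were called over all genes and the lowest adjusted p among the axis genes was 0.892. Deposited TPM moved the median over all genes from −0.01 to −0.15 on the log2 scale. For neutrophil markers 2 were called with library weights and 0 to 2 with a library left out. For chondrocyte markers 3 were called with library weights and 0 to 1 with a library left out.

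Signs of log2 fold changes turned as follows. With a library left out, Traf6 ranged from −0.0675 (without sham 2) to 0.246, Mitf from −0.0128 (without sham 3) to 0.312, Nfatc1 from −0.311 to 0.0138 (without OVX 1), and Ctsk from −0.384 to 0.260 (without OVX 3). The difference in the Tnfsf11 to Tnfrsf11b ratio ranged from −0.0106 (without OVX 3) to 0.493, and it was −0.359 with a pseudocount of 0.1. Traf6 came to −0.0160 on the deposited TPM, Ctsk to 0.185 with library weights, and, with the most abundant transcript, Csf1 to 0.00588 and Nfatc1 to 0.0280. For other abundant genes of the lists, the range with a library left out was −0.102 to 0.102 for Tnfrsf1a, −0.849 to 0.0669 for Sqstm1, −0.384 to 0.0397 for Junb, −0.568 to 0.0977 for Atp6v0c, −0.0179 to 0.0297 for Cd9 and −0.131 to 0.492 for Mmp9, which was −0.0337 on the deposited TPM. Library weights gave 0.0749 for Tnfrsf1a and 0.0512 for Junb. Id2 came to −0.0965 on the deposited TPM and −0.00593 with equal listed totals, and Cd9 to −0.163 and −0.0716 under those settings and −0.00890 with the most abundant transcript. The cause was not tested. TPM give no counts, so low axis genes such as Traf6, Mitf and Tnfsf11 have no counting interval.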
